A study of Rattus norvegicus with 20 samples.

Results

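The genes of heme synthesis and breakdown were described in 2 brain regions, the prefrontal cortex and the nucleus accumbens, of male rats of the inbred strain Fischer344/Jcl. The set was 9 genes chosen by name, of 17030 named genes counted in the series: Alas1, Alad, Uros, Urod, Cpox, Ppox and Fech of synthesis, and Hmox1 and Hmox2 of breakdown. Per the labels, the rats ate AIN-93G, the standard diet, or low-iron food from day 21 to day 39 of life, and tissue was taken at 13 weeks of age. The 4 groups were cortex and accumbens under each diet, with 5 poly(A) RNA libraries in each, 20 in all. Nothing in the labels says that a group's libraries are from different animals. The p-values therefore compare each group difference with the spread between these libraries only. Some of that spread may be technical, so the p-values may not carry over to other animals.

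Heme is an iron-containing ring that serves as the prosthetic group of cytochromes, globins and many enzymes. Its synthesis begins in mitochondria, where aminolevulinate synthase (Alas1 in most tissues, Alas2 in red cell precursors) makes the first precursor, and passes to the cytosol for steps that include those of Alad, Uros and Urod. It returns to mitochondria for Cpox, Ppox and Fech, the last of which inserts iron into the ring. Heme oxygenases open the ring and release iron, carbon monoxide and biliverdin, which the biliverdin reductase Blvra reduces to bilirubin. Blvrb is a second gene named for biliverdin reductase. Hmox1 is the stress-inducible oxygenase, and Hmox2 is the constitutive form known for its expression in neurons.

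Each member was read from 1 RefSeq accession. Alas1 (NM_024484) lies on chromosome 8 of build rn6, Alad (NM_012899) and Urod (NM_019209) on chromosome 5, Uros (NM_001012068) on chromosome 1 and Cpox (NM_001037095) on chromosome 11. Ppox (NM_001105968) lies on chromosome 13, Fech (NM_001108434) on chromosome 18, Hmox1 (NM_012580) on chromosome 19 and Hmox2 (NM_001277073) on chromosome 10. Levels are in CPM (counts-per-million), read counts scaled to the same total of assigned reads in each library, with TMM scaling over the 20 libraries. They are not divided by transcript length and are therefore compared between groups, not between genes.

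Reads assigned to accessions numbered 8291063 to 12971736 in the standard-diet cortex libraries and 5812188 to 11404663 in the low-iron cortex libraries. The accumbens libraries held 5481403 to 8856989 with the standard diet and 4340205 to 5926588 with the low-iron diet. Markers matched the labelled regions. The summed level of 10 cortical glutamatergic neuron markers was 1879 to 3548 CPM in cortex libraries and 72.4 to 515 CPM in accumbens libraries, and that of 11 striatal projection neuron markers was 365 to 427 CPM in cortex and 3638 to 6315 CPM in accumbens. A pair of libraries stood apart. Cortex standard replicate 4 had meningeal and fibroblast markers at 1123 CPM, against 108 to 211 CPM in the other standard-diet cortex libraries. Accumbens standard replicate 4 had the cortical glutamatergic markers at 515 CPM, against 100.9 to 108 CPM in the other standard-diet accumbens libraries.

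The question of which members differed with diet was asked first in the nucleus accumbens. None of the 8 members tested passed an adjusted p of 0.05 in edgeR's quasi-likelihood test, where 0% of 11202 accessions passed and 4.04% had an unadjusted p under 0.05. 0 members had an unadjusted p under 0.05 there, and DESeq2 called 0 members. Log2 fold changes of the 8 members, low-iron over standard diet, were above 0 for 4 (50.8% of all accessions tested were) and ran from -0.11 to 0.08, with a median of 0.00041 beside 0.0019 over all accessions tested. In fold terms the 95% intervals of all 8 lay between 0.826 and 1.26.

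Alas1, the rate-limiting step of synthesis in most tissues, stood in the accumbens at 52.1, 54.5, 46.8, 46.2 and 52.2 CPM in standard-diet replicates 1 to 5. In the low-iron replicates it stood at 54.4, 50.3, 51.4, 53.4 and 45.8 CPM. The diets overlapped over nearly their whole range, and the log2 fold change was 0.02 (SE 0.07, fold 1.01, 95% interval 0.917 to 1.12, edgeR adjusted p = 0.989).

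Fech, the enzyme that inserts iron, stood at 59.5, 56.8, 52.9, 56.6 and 53.3 CPM in standard-diet accumbens replicates 1 to 5. The low-iron replicates were at 57.4, 56.2, 62.6, 59.1 and 54.2 CPM. The groups overlapped, with low-iron replicate 3 the highest of the 10 libraries, and the log2 fold change was 0.05 (SE 0.06, fold 1.04, 95% interval 0.951 to 1.13, edgeR adjusted p = 0.975). Urod, which removes carboxyl groups from the ring precursor, had the lowest unadjusted p of the 8 in edgeR (0.116), at a log2 fold change of -0.11 (SE 0.06).

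Hmox1 in the accumbens rested on 34 to 64 reads per library. It stood at 6.92, 7.20, 6.95, 6.83 and 6.96 CPM in the standard-diet replicates and at 6.01, 7.11, 7.37, 7.15 and 8.12 CPM in the low-iron replicates. The low-iron libraries lay on both sides of the standard-diet ones, which spanned a narrow range, and the log2 fold change was 0.03 (SE 0.13, fold 1.02, 95% interval 0.848 to 1.23, edgeR adjusted p = 0.991).

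In the prefrontal cortex none of the 9 members passed either, where 0% of 11662 accessions passed and 5.99% had an unadjusted p under 0.05 in edgeR. Here too 0 members had an unadjusted p under 0.05, and DESeq2 called 0. The median log2 fold change of the 9 was -0.07, beside -0.00061 over all accessions tested, and 3 of 9 were above 0, as were 49.8% of accessions. In neither region did all libraries of 1 diet lie above those of the other for any member, a pattern found for 0.946% of the accessions tested in the accumbens and 1.26% in the cortex. In the authors' deposited tables the adjusted p of the 9 members was 0.867 to 0.991 in the cortex and 0.999 in the accumbens.

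Alas1 in the cortex stood at 60.4, 59.5, 60.03, 63.3 and 59.8 CPM in the standard-diet replicates. The low-iron replicates were at 61.0, 65.2, 52.5, 55.1 and 56.1 CPM, more widely spread and partly below. The log2 fold change was -0.08 (SE 0.06, fold 0.947, 95% interval 0.865 to 1.04, edgeR adjusted p = 0.711). Ppox, which oxidises the ring to protoporphyrin, was at 18.4 ± 1.67 CPM with the standard diet and 16.8 ± 1.21 CPM with the low-iron diet (SD, n = 5), the lowest unadjusted p of the 9 in edgeR (0.108), with a log2 fold change of -0.15 (SE 0.09). Fech had a log2 fold change of -0.07 (SE 0.05, fold 0.952, 95% interval 0.882 to 1.03).

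Hmox1 in the cortex was at 9.43, 9.85, 6.76, 11.1 and 8.67 CPM in the standard-diet replicates and at 9.01, 7.24, 8.18, 8.90 and 7.92 CPM in the low-iron replicates. Its highest value came from standard-diet replicate 4, the library with high meningeal markers, and the part of those markers in the level was not tested. Summed markers of microglia and macrophages, cells able to express Hmox1, were at 542 to 604 CPM with the standard diet and 508 to 605 CPM with the low-iron diet. Of 13 such markers 11 were below 0 for diet and 0 passed. The log2 fold change was -0.17 (SE 0.14, fold 0.888, 95% interval 0.724 to 1.09, edgeR adjusted p = 0.716).

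**Figure D1:**
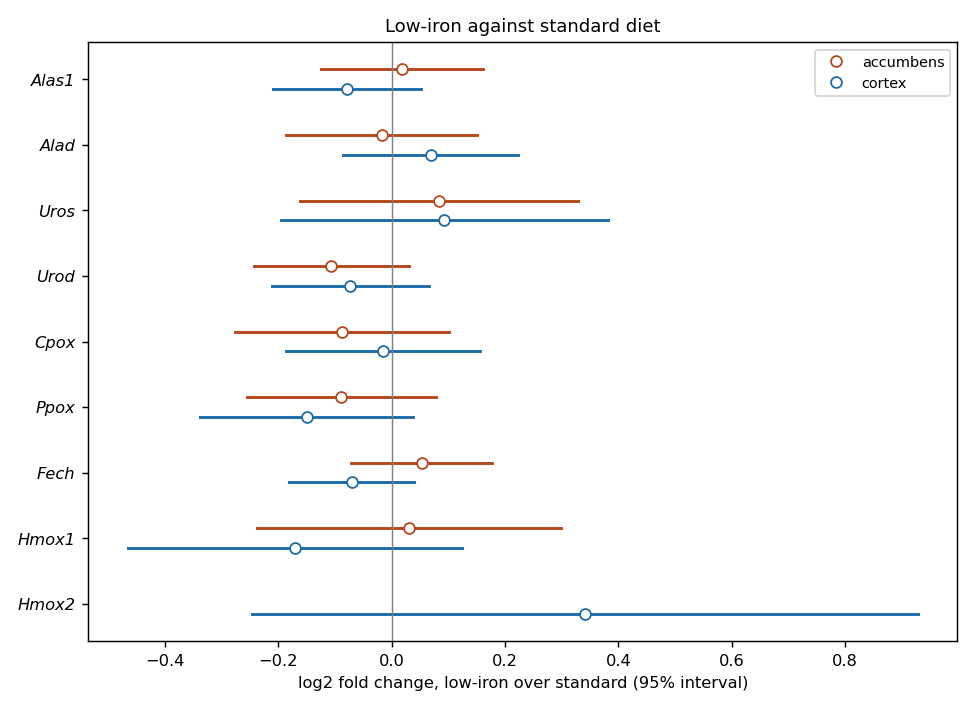
Log2 fold change of each member for the low-iron over the standard diet (x axis), in the accumbens (orange) and the cortex (blue), from 5 libraries per group; points are edgeR estimates, lines 95% intervals and open points an adjusted p of 0.05 or more. Every interval drawn crosses 0, and Hmox2 was tested in the cortex alone.

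An interaction term over the 20 libraries tested whether the diet difference was unequal in the 2 regions. 0 of the 9 members passed in edgeR, as did 0% of 11788 accessions, and 0 members had an unadjusted p under 0.05, where 5.37% of accessions did. The 8 members other than Hmox2 had interaction values between -0.10 and 0.19 on the log2 scale. The highest was that of Hmox1 (0.19, SE 0.17, 95% interval -0.17 to 0.54, edgeR adjusted p = 0.843).

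The regions were then compared, in the standard-diet libraries and separately in the low-iron libraries, so that the comparisons share no library. The enzymes of the first steps, Alas1 and Alad, were lower in the accumbens than in the cortex. Uros, Urod, Cpox and Ppox, of the following steps, were above 0 under both diets, with Uros and Cpox passing under both. Fech did not pass under either diet. Under the standard diet 6 of the 8 members tested passed in edgeR, 3 higher and 3 lower in the accumbens, beside 47% of 11612 accessions (23% higher, 24% lower). Under the low-iron diet 5 of 8 passed, 3 higher and 2 lower, beside 59.1% of 11220 accessions (30.1% higher, 29% lower). A share of this size was common among all genes, so the number of members that differed between regions did not set them apart. The median log2 fold change of the 8 was 0.06 under the standard diet and 0.10 under the low-iron diet, beside 0.0075 and 0.027 over all accessions tested. Alas1, Alad, Uros and Cpox passed under both diets, and 7 of the 8 members had the same sign under both. How many of all accessions did the same was not counted, so this does not set the members apart. In bulk tissue, fewer cells of a type and less RNA per cell cannot be told apart.

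Alad, which joins precursor molecules into the pyrrole porphobilinogen, showed the largest region difference under the low-iron diet among the 8 members tested. With the standard diet it stood at 32.6, 29.5, 28.9, 27.4 and 34.3 CPM in the cortex replicates and at 24.1, 23.1, 24.4, 20.8 and 25.7 CPM in the accumbens replicates. All 5 accumbens libraries lay below all 5 cortex libraries, as for 17.1% of accessions, and the fold was 0.776 (95% interval 0.687 to 0.877, log2 fold change -0.37, SE 0.08, edgeR adjusted p = 0.00267).

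Under the low-iron diet Alad stood at 32.6, 35.5, 30.3, 30.5 and 32.7 CPM in the cortex and at 23.0, 23.4, 23.0, 22.5 and 25.2 CPM in the accumbens. Again the regions did not overlap, as for 23.8% of accessions in this direction, and the fold was 0.729 (95% interval 0.654 to 0.814, log2 fold change -0.46, SE 0.08, edgeR adjusted p = 4.42e-05). The call held with each of the 10 libraries of either comparison left out in turn.

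Alas1 was at 60.6 ± 1.55 CPM in the cortex and 50.4 ± 3.66 CPM in the accumbens with the standard diet (SD, n = 5). Its libraries did not overlap between regions, as for 17.1% of accessions in this direction. The fold was 0.832 (95% interval 0.763 to 0.908, edgeR adjusted p = 0.00236). With the low-iron diet the levels were 58.0 ± 5.06 and 51.0 ± 3.33 CPM (SD, n = 5), the regions overlapped, and the fold was 0.889 (95% interval 0.802 to 0.986, edgeR adjusted p = 0.0474). That second call was lost in 5 of the 10 fits with 1 library left out: those without cortex low-iron replicates 1 or 2, or accumbens low-iron replicates 2, 3 or 5. DESeq2 gave it an adjusted p of 0.0535.

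Promoters were read from RefSeq (build GRCr8), 250 bases before to 50 after the annotated start, and 7 of the 9 members had an entry. Cpox and Hmox1 had none and were not searched. They are shown for Alas1, Alad and Urod, in which 1 of the 2 motifs marked below was found. Nuclear respiratory factor 1, a regulator of mitochondrial genes known to act on Alas1, binds a motif searched here, on both strands, as GCGCA, any base (N) and GCGC in a row. Alas1 was the 1 member with a match, at 2 places, and 4.25% of the 33469 promoters of this length held one. In the following Alas1 promoter, chr8:115768593-115768892 on the minus strand, capitals mark these matches, the second of which runs across the annotated start.
Alas1: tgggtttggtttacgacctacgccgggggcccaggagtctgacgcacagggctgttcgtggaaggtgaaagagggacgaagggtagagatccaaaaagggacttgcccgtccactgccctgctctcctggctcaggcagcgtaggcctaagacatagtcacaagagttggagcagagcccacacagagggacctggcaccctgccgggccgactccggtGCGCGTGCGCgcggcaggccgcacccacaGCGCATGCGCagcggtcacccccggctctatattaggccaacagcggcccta

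The hexamer CACGTG, the E-box bound by clock and upstream stimulatory factors, reads the same on both strands and was found in 6.42% of promoters. Among the members it was found for Alad, at 2 places, and for Urod, at 1 place. Whether this hexamer has a part in the region differences was not tested. Capitals mark it below, in Alad (chr5:80987852-80988151, minus strand) and in Urod (chr5:135705331-135705630, minus strand). The GC-box GGGCGG, searched on both strands, was found for Alad, Fech, Hmox2, Ppox and Urod, and in 33.1% of all promoters. A match describes letters alone, and binding was not measured.
Alad: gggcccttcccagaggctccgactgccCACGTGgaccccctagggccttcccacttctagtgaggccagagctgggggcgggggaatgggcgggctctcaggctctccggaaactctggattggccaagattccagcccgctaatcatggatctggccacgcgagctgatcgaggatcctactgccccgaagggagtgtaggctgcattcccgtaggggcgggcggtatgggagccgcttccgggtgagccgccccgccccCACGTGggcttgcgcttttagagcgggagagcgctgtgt
Urod: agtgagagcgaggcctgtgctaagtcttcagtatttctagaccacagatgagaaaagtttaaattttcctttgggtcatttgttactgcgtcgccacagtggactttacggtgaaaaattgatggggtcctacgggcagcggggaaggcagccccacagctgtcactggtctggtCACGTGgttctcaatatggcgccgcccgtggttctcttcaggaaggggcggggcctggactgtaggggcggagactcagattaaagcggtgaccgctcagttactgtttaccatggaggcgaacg

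Uros, which closes the ring, stood in the cortex at 9.17, 8.81, 11.5, 7.59 and 11.98 CPM with the standard diet, on 68 to 111 reads per library. In the standard-diet accumbens it was at 13.8, 14.99, 10.9, 11.7 and 12.5 CPM. The ranges overlapped, since cortex replicates 3 and 5 reached the level of accumbens replicates 3 and 4. The fold was 1.31 (95% interval 1.06 to 1.62, edgeR adjusted p = 0.0389). This call was lost without cortex replicate 1 or 2 or accumbens replicate 1, 2 or 5 (adjusted p up to 0.0906), and with the replicate number as a block (adjusted p = 0.0596). In low-iron libraries Uros was at 10.6 ± 1.19 CPM in the cortex and 13.6 ± 1.47 CPM in the accumbens (SD, n = 5). The fold was 1.31 again (95% interval 1.11 to 1.55, edgeR adjusted p = 0.00694), and here the call held with each library left out.

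Cpox, the first of the late mitochondrial steps, was at 32.9, 34.7, 35.4, 36.5 and 39.1 CPM in the standard-diet cortex and at 42.8, 40.6, 47.9, 50.1 and 44.8 CPM in the standard-diet accumbens. The regions did not overlap, as for 16.4% of accessions in this direction, and the fold was 1.27 (95% interval 1.14 to 1.41, edgeR adjusted p = 0.00179). With the low-iron diet the levels were 36.0, 32.6, 34.0, 33.4 and 42.2 CPM in the cortex and 39.9, 44.3, 42.7, 49.7 and 34.9 CPM in the accumbens. The regions overlapped, since accumbens replicate 5 was low and cortex replicate 5 high, and the log2 fold change was 0.26 (SE 0.09, 95% fold interval 1.05 to 1.38, edgeR adjusted p = 0.0218). That call was lost without cortex low-iron replicate 2 or 4, or accumbens low-iron replicate 2 or 4 (adjusted p up to 0.0920).

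Urod passed with the standard diet alone, at 39.1 ± 1.71 CPM in the accumbens and 34.7 ± 1.998 CPM in the cortex (SD, n = 5), a fold of 1.13 (95% interval 1.03 to 1.23, edgeR adjusted p = 0.0300). The call was lost in 6 of the 10 fits with 1 library left out (adjusted p up to 0.0732), those without cortex replicate 1, 2 or 5 or accumbens replicate 1, 3 or 4, and DESeq2 gave 0.0722. Ppox passed with the low-iron diet alone, at a fold of 1.19 (95% interval 1.05 to 1.36, edgeR adjusted p = 0.0199), and DESeq2 gave 0.0626. It was at 1.14 with the standard diet (edgeR adjusted p = 0.0645). Without cortex replicate 4 or accumbens replicate 3 or 5 of the low-iron diet, Ppox did not pass (adjusted p up to 0.0535). The interactions of Urod (-0.05, SE 0.08) and Ppox (0.05, SE 0.11) did not pass in edgeR, so a difference between diets was not shown.

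Fech was at 58.1 ± 2.66 CPM in the cortex and 55.8 ± 2.72 CPM in the accumbens with the standard diet, and at 55.8 ± 2.51 and 57.9 ± 3.19 CPM with the low-iron diet (SD, n = 5). The folds of 0.962 (95% interval 0.887 to 1.04) and 1.05 (95% interval 0.958 to 1.14) did not pass in edgeR (adjusted p = 0.415 and 0.372). Of the members, its 4 group means were the closest together, the highest being 1.04 times the lowest.

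The breakdown gene Hmox1 was lower in the accumbens under the standard diet, at 6.97 ± 0.138 CPM against 9.15 ± 1.59 CPM in the cortex (SD, n = 5). The fold was 0.762 (95% interval 0.624 to 0.930, edgeR adjusted p = 0.0279). Cortex replicate 3 (6.76 CPM) lay below all 5 accumbens libraries and the other 4 cortex libraries above all 5. The call was lost in 7 of the 10 fits with 1 library left out, those without cortex replicate 1 or 2 or any of the 5 accumbens replicates, and without both replicates numbered 4 it had an adjusted p of 0.0749. With the low-iron diet the fold was 0.875 (95% interval 0.724 to 1.06, edgeR adjusted p = 0.212).

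**Figure D2:**
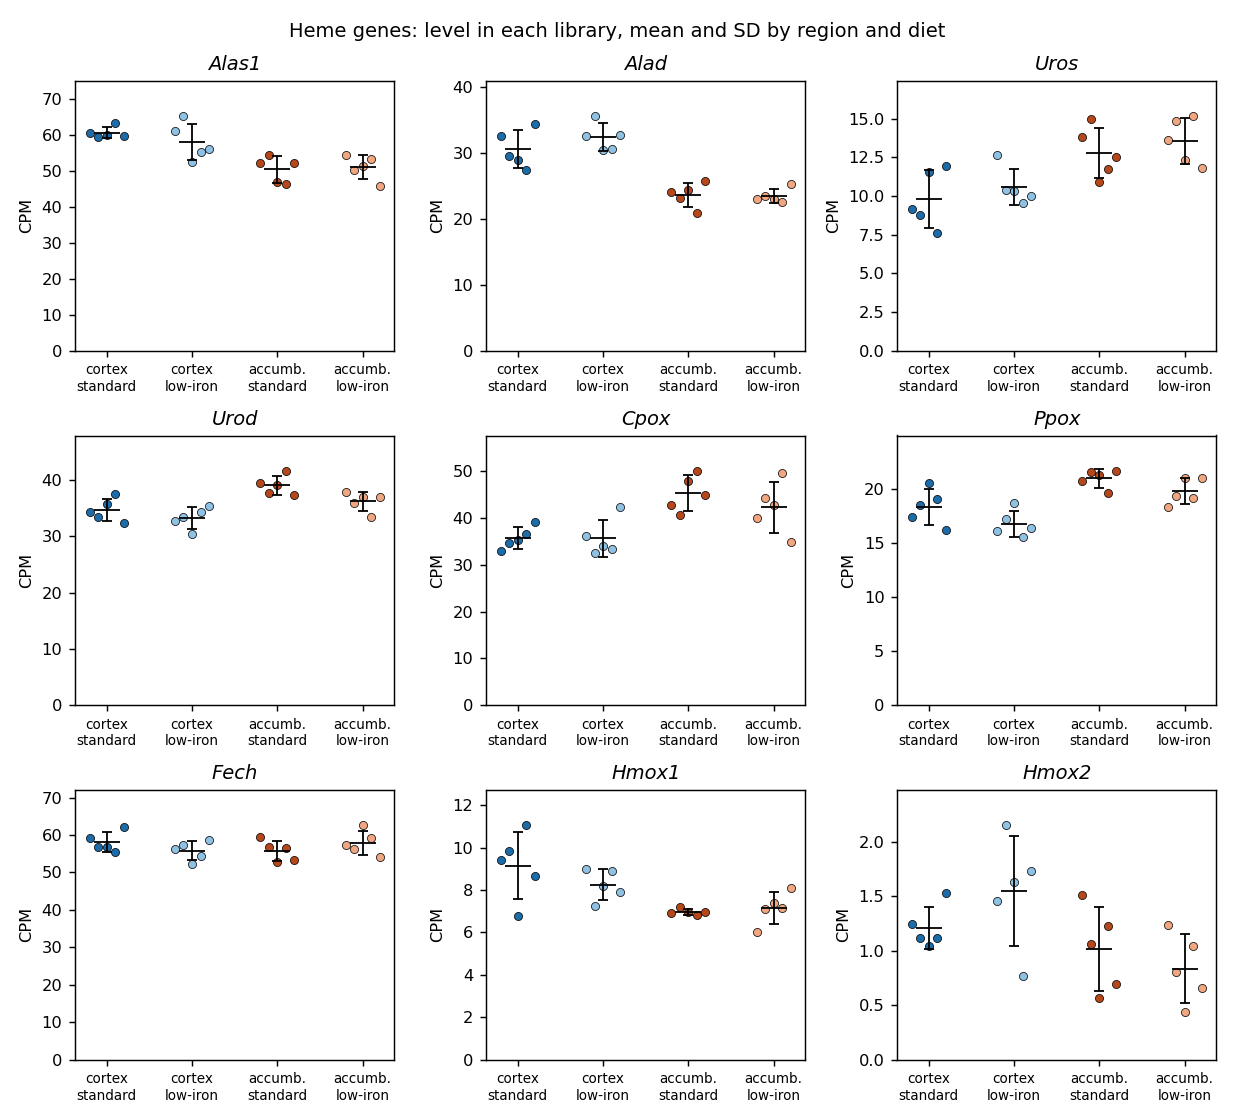
CPM of each member (y axis, from 0) in each of the 20 libraries, grouped by region and diet (x axis), with the mean (long bar) and SD (caps) of the 5 libraries. Alas1 and Alad sit lower in the accumbens groups and Uros and Cpox higher, while the 4 groups of Fech lie between 52.3 and 62.6 CPM.

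Depth and the sum of the oligodendrocyte markers differed between regions. The 9 oligodendrocyte markers summed to 4770 to 7115 CPM in accumbens libraries and 1128 to 1710 CPM in cortex libraries, with 8 of 9 higher and 1 lower in the accumbens under each diet. Of 13 microglial and macrophage markers, 1 was lower in the accumbens under the standard diet, and 6 were higher under the low-iron diet. Their sums overlapped between regions, at 529.5 to 612 CPM in the accumbens and 542 to 604 CPM in the cortex with the standard diet. With the low-iron diet they were 558 to 670 and 508 to 605 CPM. Of 5 meningeal and fibroblast markers tested, 3 were lower in the accumbens under the standard diet and 2 under the low-iron diet. These counts are to be read beside the 47% and 59.1% of all accessions that passed. The part of these cell types in the member differences was not tested. Accumbens libraries were also shallower. With the log2 of assigned reads as a covariate, 0 of 8 members passed between regions under the standard diet and 1 of 8, Alad, under the low-iron diet (edgeR adjusted p = 0.0239). Under the standard diet the log2 fold changes were then -0.21 for Alas1, -0.34 for Alad, 0.44 for Uros, 0.12 for Urod, 0.16 for Cpox and -0.37 for Hmox1, and under the low-iron diet -0.06 for Alas1, 0.35 for Uros, 0.40 for Cpox and 0.10 for Ppox. Depth and region are tied in these libraries and cannot be told apart in full.

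The ratio of Alad to Cpox reads within 1 library does not depend on how libraries are scaled. It was 0.989, 0.852, 0.818, 0.749 and 0.876 in the standard-diet cortex and 0.563, 0.570, 0.509, 0.416 and 0.575 in the standard-diet accumbens. With the low-iron diet it was 0.903, 1.09, 0.893, 0.914 and 0.774 in the cortex and 0.575, 0.529, 0.538, 0.453 and 0.723 in the accumbens. All 10 accumbens ratios lay below all 10 cortex ratios. The pair was chosen after its values were seen, so the ratio is a description with no test.

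**Figure D3:**
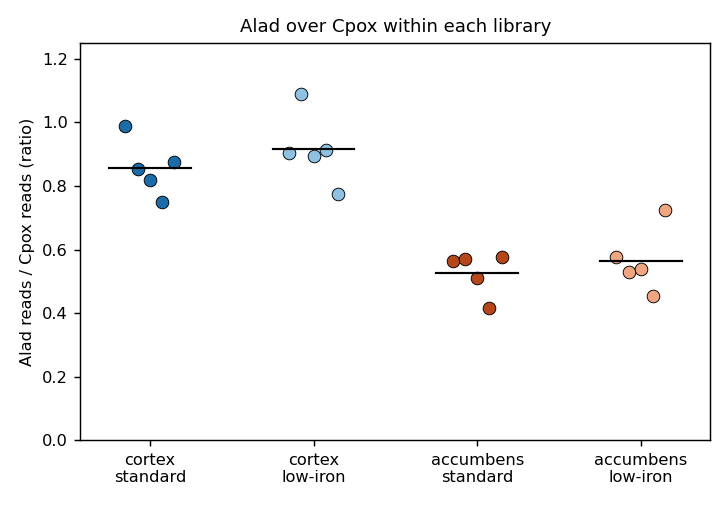
Reads of Alad divided by reads of Cpox (y axis, a ratio from 0) in each of the 20 libraries, by region and diet (x axis), with the group mean as a bar. The accumbens libraries lie between 0.416 and 0.723 and the cortex libraries between 0.749 and 1.09.

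Hmox2 could not be described as a gene from these counts. RefSeq gives it 2 accessions in the files, and the one used held 2 to 22 reads per library, 190 over the 20 libraries, while the other (NM_024387) held 3 over the 20 libraries. Counts were made per accession, and reads in sequence that accessions of 1 gene share would not belong to either alone. Of the 1508 accessions that share a gene with another, 67.2% had a mean under 1 read, against 23.0% of the others. The accession used was at 1.21 ± 0.193 and 1.55 ± 0.507 CPM in the cortex and at 1.01 ± 0.386 and 0.836 ± 0.316 CPM in the accumbens, with the standard and the low-iron diet in that order (SD, n = 5). Its spread within groups, a median coefficient of variation of 35.3%, was close to the 34.4% that counting alone gives. In the cortex its diet fold was 1.27 (95% interval 0.843 to 1.90, edgeR adjusted p = 0.716). It was too low to be tested in the accumbens or between regions. In 1 fit over all 20 libraries it was kept, mainly through the reads of cortex libraries. Low-iron libraries held 8 to 22 reads in the cortex and 2 to 7 in the accumbens. That fit gave a log2 fold change of -0.84 between regions under the low-iron diet (edgeR adjusted p = 0.0350), and DESeq2 gave an adjusted p of 0.115. Since the gene was kept through the region where it was high, no region difference is read from that value.

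For the other members the spread between libraries was also near the counting limit in several cases. The median coefficient of variation within groups was 4.72% for Fech, 5.23% for Urod, 6.62% for Ppox and 9.73% for Hmox1, where counting alone gives 4.83%, 6.01%, 8.29% and 13.1%. Cpox varied more, at 9.68% against 5.69%. After group means were removed, the 36 pairs of members had a median Pearson r of -0.06 over 20 libraries, with 14 pairs above 0. The highest r was 0.41 (Uros with Hmox2) and the lowest -0.50 (Uros with Urod). These values share library depth and scaling and are given as a description.

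The genes most like Alas1 across the 20 libraries, by Pearson r of log2 CPM with group means removed among 8943 accessions of at least 10 CPM, were Irf2bp1 (0.872), Nfkbib (0.836), Sin3b (0.829), Mesdc1 (0.818) and Irf2bpl (0.812). Those most like Hmox1, among 8944 accessions, were Mt2A (0.777), which encodes a metal-binding metallothionein, Glis2 (0.753), Ccnt2 (0.747), Afap1l2 (0.743) and Acadvl (0.741). Both lists hold only the highest r of all accessions compared, and how high r would reach from noise alone was not tested. The median coefficient of variation of Hmox1 within groups, 9.73%, was below the 13.1% that counting alone gives. That of Alas1 was 6.89%, above the 4.93% of counting. No shared function or control is read from either list.

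Other genes of heme handling were taken from a list of 30, of which 26 were tested for diet in the accumbens and 27 in each other comparison. With diet 0 passed in either region. In edgeR 4 of 27 in the cortex and 0 of 26 in the accumbens had an unadjusted p under 0.05, beside 5.99% and 4.04% of all accessions. The exporter gene Abcg2 (fold 0.749, unadjusted p = 0.000240, adjusted p = 0.683) was at 25.7 to 29.8 CPM with the standard diet and 18.4 to 22.7 CPM with the low-iron diet. Without cortex standard replicate 4 the log2 fold change of Abcg2 went from -0.42 to -0.39. The summed level of endothelial and mural markers was 507 to 846 CPM in the standard-diet cortex, highest in replicate 4. In the low-iron cortex these markers summed to 442 to 552 CPM, so the diets overlapped. Of those 10 markers 10 were below 0 and 0 passed, and their part in the Abcg2 value was not tested. Slc25a39, a mitochondrial carrier gene, was at a fold of 0.896 (edgeR adjusted p = 0.683). In the accumbens the lowest p belonged to Nr1d2, a heme-binding clock repressor (fold 1.12), Ppargc1a, a coactivator of mitochondrial genes (0.889), and Pgrmc1, a heme-binding membrane protein gene (1.07), each with an edgeR adjusted p of 0.972. In the interaction 0 of 27 passed, and Alas2 (0.62 on the log2 scale), Ppargc1a (-0.34) and the transporter gene Abcb6 (-0.10) had the lowest p.

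Alas2, the synthase of red cell precursors, was at 4.81, 4.56, 5.20, 7.48 and 3.44 CPM in the standard-diet cortex and at 3.49, 3.91, 3.27, 3.35 and 3.18 CPM in the low-iron cortex. Standard-diet replicate 5 alone lay within the low-iron range. The fold was 0.668 (unadjusted p = 0.0111, edgeR adjusted p = 0.683) and the log2 fold change -0.58, or -0.41 without standard-diet replicate 4. The summed level of the erythroid markers, which include Alas2, was 139 to 229 CPM in the standard-diet cortex and 104 to 154 CPM in the low-iron cortex, highest in the same replicate 4. Nearly all of it was Hbb, while Hba-a1, Hba-a2 and Hbb-b1 were at 0 in at least 4 of 5 libraries of every group. The part of blood in the Alas2 values was not tested. In the accumbens Alas2 was at 3.41 ± 0.726 CPM with the standard diet and 3.58 ± 0.816 CPM with the low-iron diet (SD, n = 5), a fold of 1.04. There the erythroid markers summed to 106.9 to 127 CPM with the standard diet and 85.4 to 105.3 CPM with the low-iron diet. The sums did not overlap, by a narrow gap, a pattern found for 0.946% of single accessions tested for diet in the accumbens. Of the 2 erythroid markers tested there, 0 passed in edgeR.

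Between regions 10 of the 27 other heme genes passed under the standard diet in edgeR, 5 higher and 5 lower, and 17 under the low-iron diet, 9 higher and 8 lower. These are to be read beside the 47% and 59.1% of all accessions. Hebp1, which encodes a heme-binding protein, was at 25.2 ± 3.51 CPM in the cortex and 7.64 ± 0.640 CPM in the accumbens with the standard diet (SD, n = 5), a fold of 0.304 (edgeR adjusted p = 2.78e-07). Its low-iron fold was 0.254 (edgeR adjusted p = 2.56e-10). Abcb6, a porphyrin transporter gene, was higher in the accumbens, at folds of 1.39 and 1.31 (edgeR adjusted p = 2.73e-06 and 6.43e-07).

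The biliverdin reductase gene Blvra stood at 20.3, 21.2, 19.7, 18.8 and 25.5 CPM in the standard-diet cortex and at 9.08, 6.96, 11.9, 8.76 and 12.1 CPM in the standard-diet accumbens. The regions did not overlap, as for 17.1% of accessions in this direction, and the fold was 0.463 (95% interval 0.370 to 0.579, edgeR adjusted p = 6.93e-05). With the low-iron diet the fold was 0.412 (edgeR adjusted p = 2.11e-06), on 28 to 60 reads per accumbens library. Blvrb, the other reductase, was lower too, at folds of 0.764 and 0.772 (edgeR adjusted p = 0.00857 and 0.00255). With the depth covariate both Blvrb calls were lost (adjusted p = 0.179 and 0.105), while those of Blvra held (0.00117 and 0.000762). Hmox1, Blvra and Blvrb were thus each below 0 under both diets, with Hmox1 passing under the standard diet alone.

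**Figure D4:**
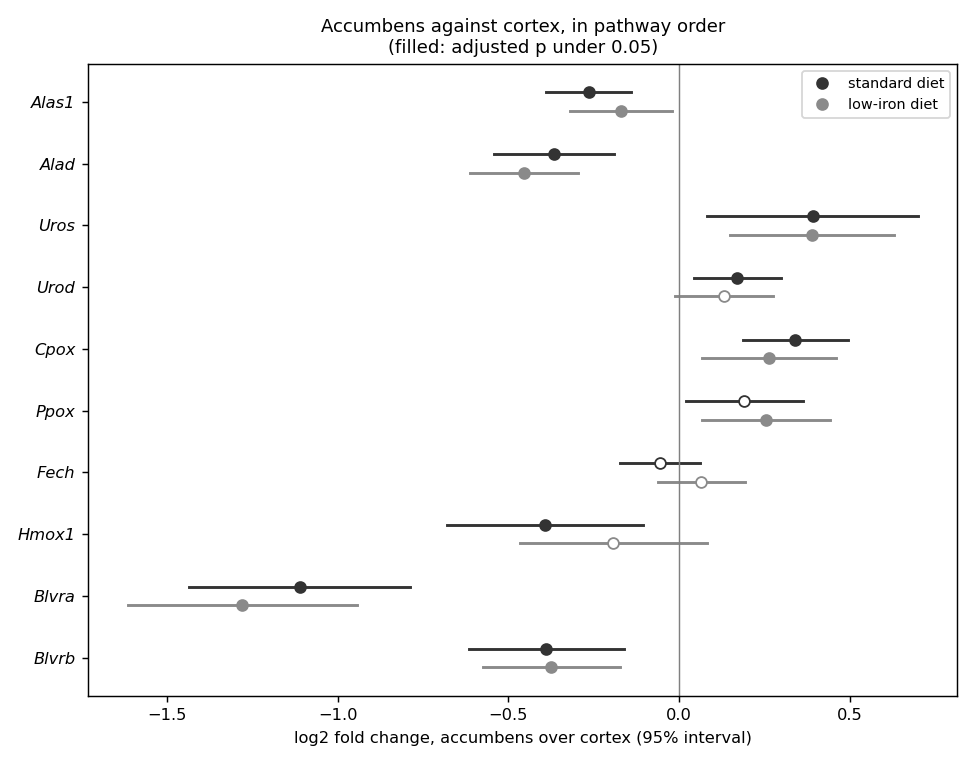
Log2 fold change of accumbens over cortex (x axis) for heme genes in pathway order, under the standard diet (dark) and the low-iron diet (grey), from 5 libraries per group; points are edgeR estimates, lines 95% intervals and filled points an adjusted p under 0.05. Alas1 and Alad lie below 0, Uros to Ppox above 0, Fech near 0, and Hmox1, Blvra and Blvrb below 0.

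Targets of the stress factor NRF2 and the heme sensor BACH1, which control Hmox1, were taken from a list of 12, of which 10 were tested. With diet 0 passed in either region in edgeR, and 1 of 10 had an unadjusted p under 0.05 in the cortex, the ferritin light chain gene Ftl1 (fold 0.870, unadjusted p = 0.0181). In the accumbens the lowest p belonged to Nqo1 (fold 0.875), Me1 (0.818) and Slc7a11 (1.08), each with an edgeR adjusted p of 0.972. In the cortex Osgin1 (fold 0.689) and Slc7a11 (0.886) came next after Ftl1. Without cortex standard replicate 4 the log2 fold change of Osgin1 went from -0.54 to -0.13 and that of Slc7a11 from -0.17 to -0.05. In the interaction, where 0 of 10 passed, Me1 (-0.37 on the log2 scale), Osgin1 (0.80) and Slc7a11 (0.26) had the lowest p. The same library left out gave 0.40 for Osgin1 and 0.15 for Slc7a11. Between regions 5 passed under the standard diet, 3 higher and 2 lower, and 6 under the low-iron diet, 4 higher and 2 lower. These shares of 10 are near the 47% and 59.1% of all accessions. Me1, a source of reducing power, was lower in the accumbens (folds 0.532 and 0.416 under the standard and the low-iron diet), as was the cystine transporter gene Slc7a11 (0.593 and 0.718). The low-expressed Osgin1 was higher, at a fold of 3.15 with the standard diet (edgeR adjusted p = 0.00141) and 5.48 with the low-iron diet, the latter at 6.89 ± 1.96 CPM against 1.19 ± 0.544 CPM (SD, n = 5).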

How the data were processed

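Poly(A) RNA of 20 libraries was counted by the authors as raw read counts per RefSeq accession (unstranded column of the deposited files). Per the submitters' processing notes, the tools were STAR, HTSeq, Trimmomatic 0.36.3, DESeq and DESeq2 (roles not given) and the build rn6. The authors' deposited tables also hold mean signal, log2 fold changes, a test score and p-values. Rows naming no gene (50.8 to 60.7% of reads) were left out. Members were found by symbol in the deposited tables, taking the accession with the highest mean count. Strand columns split evenly, so an antisense partner could not be separated.

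Tests used edgeR 4.0.16 in R 4.3.3 (quasi-likelihood, TMM, robust, filterByExpr with minimum count 10), without a replicate block, with Benjamini-Hochberg adjustment over all accessions tested and a threshold of 0.05. Standard errors were the log2 fold change over the square root of F. DESeq2 1.42.0, RLE factors, no filter, a block, summed accessions, a depth covariate, 1 fit over all libraries and leaving out libraries were alternatives. The model was tested on simulated data. Named genes were the 9 members, Alas2, Blvra and Blvrb, the 3 lowest p of each list per comparison (not all are reported here), and the 5 genes most like Alas1 and Hmox1. Members and lists were chosen with earlier results of these data known. Microglial, endothelial and astrocyte markers were also summed. Their ranges were 508 to 670, 438 to 846 and 3299 to 4640 CPM over the 20 libraries.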

Additional observations from a re-analysis of the deposited data

Results flagged for a closer look

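Within groups of 5 libraries, the highest or lowest CPM stood far from the others, by Dixon's ratio above 0.71, in 4 of 52 combinations of gene and group, where about 1 in 20 is flagged by chance. Alas1 was at 63.3 CPM in cortex standard replicate 4, above the others of its group. Uros was at 12.6 CPM in cortex low-iron replicate 1, Alas2 was at 2.17 CPM in accumbens low-iron replicate 3, and Blvrb was at 25.3 CPM in cortex low-iron replicate 3. The cause was not tested for any of them.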

How the results depend on the processing

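Diet and interaction calls on members were 0 under every alternative run, and no region call on a member changed direction. Over all accessions, DESeq2 called 1 for diet in the accumbens. With depth as a covariate the region calls were 3386 accessions and 0 members under the standard diet and 3957 accessions and 1 member under the low-iron diet, and with DESeq2 the low-iron region calls on members were 3. Leaving out 1 library gave 3 to 7 members under the standard diet and 3 to 5 under the low-iron diet. The low of 3 came without cortex replicate 1 or 2 or accumbens replicate 1 of the standard diet, and without cortex replicate 2 or 4 or accumbens replicate 2, 3 or 5 of the low-iron diet. Diet values near 0 changed sign without passing. With the depth covariate Alad was at 0.0056 and Hmox1 at -0.028 in the accumbens, Cpox was at 0.0020 in the cortex in 1 fit over all libraries, and the interaction of Uros was 0.022 without both standard-diet libraries numbered 4, an alternative chosen after seeing the data. With 1 library left out, diet values in the accumbens ran from -0.0097 to 0.052 for Alas1, -0.056 to 0.011 for Alad and -0.017 to 0.088 for Hmox1, cortex values of Cpox from -0.089 to 0.022, and the interaction of Uros from -0.10 to 0.049. The cause was not tested. The labels do not say whether same-numbered cortex and accumbens libraries come from the same animal. A pairing in the region tests is therefore not known. Between regions, same-numbered libraries had r from -0.0441 to 0.073 with the standard diet (median 0.03, other pairs -0.00496). With the low-iron diet r was 0.0217 to 0.136 (median 0.0449, other pairs -0.026). Best matches with the own number were 2 and 3 of 5. Between diets r ran from -0.312 to 0.16 over both regions, with 0 and 1 of 5 in the accumbens and the cortex. With the replicate number as a block, 5188 accessions were called between regions under the standard diet and 6817 under the low-iron diet, 0 for diet in either region, and 5 members under each diet. The block lost Uros under the standard diet. Depth limits Hmox1 and Uros, whose counting error exceeds 10%.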
